A study of Saccharomyces cerevisiae with 10 samples.

Results

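The mitotic exit network of budding yeast was followed here through 10 genes chosen by name (*TEM1*, *BFA1*, *BUB2*, *LTE1*, *CDC5*, *CDC15*, *MOB1*, *DBF2*, *DBF20* and *CDC14*), which are 10 of the 6607 genes in the count table. RNA was sequenced from 10 unsynchronised cultures of 3 strains in which *SUP35*, the gene of the translation termination factor eRF3, is replaced on the chromosome by HIS3MX and supplied only by a plasmid. The labels give all of the strains as MATa, with ade1-14 (a UGA nonsense allele) and trp1-289 (UAG), and also with his3-d200, lys2, ura3-52 and leu2-3,112. The groups were 218-L-14-D1690 after plasmid shuffling (stage 3, n = 3), which lives on the nonsense allele *sup35-218*, then L-14-D1690 after the same shuffling (stage 3, n = 4) and U-14-D1690 before it (stage 1, n = 3), both with wild-type *SUP35*. The study's methods put both stage 3 alleles on centromeric *LEU2* plasmids, with 5-FOA used against cells that kept the *URA3* plasmid of stage 1, whereas the labels write pRSU2 for both wild-type groups. The labels give SC as the medium of all cultures, and the methods give it without uracil (SC-U) or without leucine (SC-L). Each group is a single strain, so differences in plasmid marker, medium and strain history cannot be told apart from stage.

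The network is the signalling cascade that ends mitosis. The small GTPase Tem1 sits at the spindle pole that enters the bud and is held inactive by the GTPase-activating pair Bfa1 and Bub2 until that pole arrives. Active Tem1 works through the kinase Cdc15 on the kinases Dbf2 and Dbf20, which need the subunit Mob1, and these keep the phosphatase Cdc14 outside the nucleolus, where it reverses the phosphorylations made by mitotic Cdk. Much of this control acts on proteins, which RNA counts do not show.

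Total counts were 3044096 to 4861009 per culture, and all 10 genes passed the filter on low counts that left 5856 genes to test. Over those genes, 39.2% were called different between *sup35-218* and *SUP35* at stage 3 (18.5% higher and 20.7% lower), 46.3% between *sup35-218* at stage 3 and *SUP35* at stage 1 (22.9% higher and 23.3% lower), and 25.4% between *SUP35* at stage 3 and *SUP35* at stage 1 (12.7% higher and 12.8% lower). A call is an adjusted p under 0.05 from edgeR (quasi-likelihood), where the Benjamini-Hochberg adjustment covers every gene tested. *SUP35* itself had 1833 to 2185 normalized CPM (counts scaled to a common library size by TMM) in *sup35-218* cultures, against 505 to 809 at stage 3 and 406 to 481 at stage 1 with wild-type *SUP35*; these levels do not show which allele is present. *URA3* had 59.2 to 79.8 normalized CPM in *sup35-218* cultures and 71.9 to 94.4 in *SUP35* stage 3 cultures, against 829 to 1091 in *SUP35* stage 1 cultures. *LEU2* had 6453.5 to 7220.7 normalized CPM in *sup35-218* cultures, 1733 to 2743 in *SUP35* stage 3 cultures and 1434 to 1853 in *SUP35* stage 1 cultures. This marker RNA therefore also differed between the stage 3 strains. The labelled mating type went against its markers in all 10 cultures: the 4 genes of MATalpha cells (*STE3*, *MF(ALPHA)1*, *MF(ALPHA)2* and *SAG1*) summed to 1287 to 1817 RPKM (normalized CPM per kilobase of gene) in *sup35-218*, 2020 to 2402 in *SUP35* stage 3 and 1936 to 2378 in *SUP35* stage 1 cultures. The 5 genes of MATa cells (*STE2*, *STE6*, *MFA1*, *MFA2* and *BAR1*) summed to 84.97 to 114, 115 to 450 and 560 to 1354 RPKM in the same 3 groups, and none of the 9 markers was at 0 in any culture. No culture could be set aside on this ground, because all of them show it.

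Between the stage 3 strains, 4 of the 10 genes were higher in *sup35-218* (*BFA1*, *DBF2*, *CDC15* and *CDC14*) and 1 was lower (*DBF20*), beside the 18.5% and 20.7% of all genes given above. The median log2 fold change (log2FC) of the 10 genes was 0.20, against -0.01 over all genes tested, and the median size of change was 0.26, against 0.28. The 5 called genes were also the ones whose groups did not overlap, as was the case for 43.7% of all genes. *TEM1*, *BUB2*, *LTE1*, *CDC5* and *MOB1* were not called. Without *sup35-218* replicate 3 the count higher was 2 (*BFA1* and *DBF2*). In a bulk culture a lower share of cells at the point where a gene is transcribed and less of its RNA in each cell cannot be told apart. The plot of the 10 genes by culture gives every value.

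**Figure D1:**
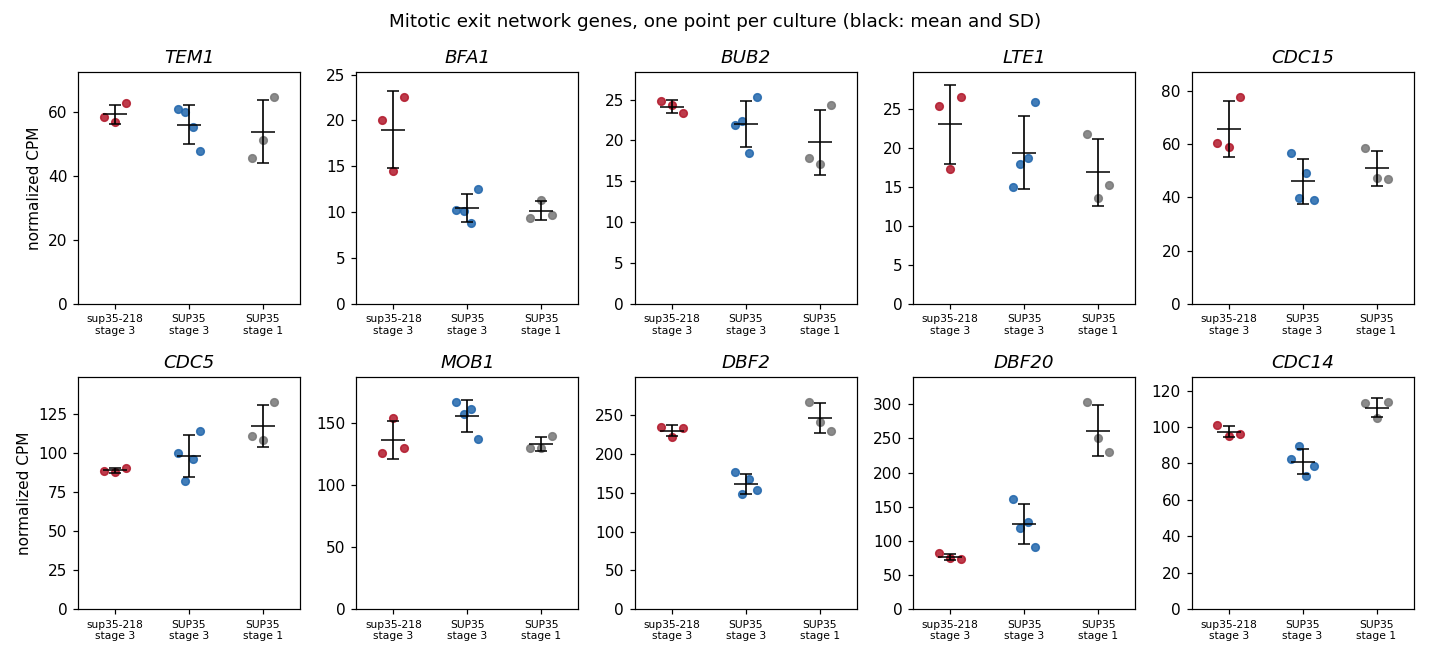
Normalized CPM of the 10 mitotic exit network genes (1 panel per gene, each axis starting at 0) in sup35-218 stage 3, SUP35 stage 3 and SUP35 stage 1 cultures; each point is 1 culture and the black marks are the mean and SD. DBF20 steps upward across the groups from left to right, DBF2 and CDC14 lie lower in SUP35 stage 3 than in both other groups, BFA1 and CDC15 lie higher in sup35-218 than in both other groups, and TEM1, BUB2, LTE1 and MOB1 overlap.

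At the top of the cascade the gene of the GTPase was not called in any comparison, and of the pair that brakes it *BFA1* rose in *sup35-218*. *TEM1* (YML064C, chromosome XIII) had 58.3, 56.9 and 62.7 normalized CPM in *sup35-218* cultures, against 60.8, 60.1, 55.4 and 47.7 in *SUP35* stage 3 cultures and 45.7, 51.2 and 64.8 in *SUP35* stage 1 cultures. The 3 sets overlap, and the log2FC of *sup35-218* over *SUP35* at stage 3 was 0.08, with a 95% interval of -0.20 to 0.37. *BFA1* (YJR053W, chromosome X), which encodes the subunit that ties the GTPase-activating pair to the spindle pole, had 19.999, 14.4 and 22.6 normalized CPM in *sup35-218* cultures, against 10.3, 10.1, 8.83 and 12.5 in *SUP35* stage 3 cultures and 9.38, 11.4 and 9.72 in *SUP35* stage 1 cultures. Each *sup35-218* culture lay above every wild-type culture, although replicate 2 was close to the top of the *SUP35* stage 3 range.

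*BFA1* rose with a log2FC of 0.87 (SE 0.19, adjusted p = 0.00295 by edgeR) in *sup35-218* against *SUP35* at stage 3 and 0.89 (SE 0.21, adjusted p = 0.00323) against stage 1. It had 30 to 90 counts per culture, the lowest range of the 10 genes, so counting error is a larger part of its spread than in the others. Between the wild-type stages its log2FC was 0.02, with an interval of -0.43 to 0.47. *BUB2* (YMR055C, chromosome XIII), the partner with the catalytic GTPase-activating domain, averaged 24.2 ± 0.745 normalized CPM in *sup35-218* (SD, n = 3), 22.01 ± 2.82 in *SUP35* stage 3 (n = 4) and 19.8 ± 3.94 in *SUP35* stage 1 (n = 3). It was not called in any comparison.

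Per kilobase, there was 0.421 as much *BFA1* as *BUB2* RNA in *sup35-218* cultures (range 0.317 to 0.517), 0.253 in *SUP35* stage 3 (0.241 to 0.264) and 0.283 in *SUP35* stage 1 (0.214 to 0.354). These ratios are a description with no test, and the lowest *sup35-218* value lies inside the stage 1 range. *LTE1* (YAL024C, chromosome I), whose product acts in the bud against the brake, averaged 23.1 ± 5.07, 19.4 ± 4.65 and 16.9 ± 4.32 normalized CPM in *sup35-218*, *SUP35* stage 3 and *SUP35* stage 1 cultures. Its log2FC was 0.47 (SE 0.24, adjusted p = 0.123 by edgeR) in *sup35-218* against *SUP35* stage 1, with an interval of -0.04 to 0.98. It had the largest spread among replicates of the 10 genes, a pooled within-group SD of 0.33 on the log2 scale, which lies at percentile 90.2 of all genes tested.

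*CDC15* (YAR019C, chromosome I), the kinase that Tem1 activates, had 60.3, 58.9 and 77.8 normalized CPM in *sup35-218* cultures, against 56.6, 39.7, 49.0 and 38.8 in *SUP35* stage 3 cultures and 58.4, 47.1 and 47.0 in *SUP35* stage 1 cultures. The *sup35-218* cultures were above all others, but by little: *SUP35* stage 1 replicate 1 and *SUP35* stage 3 replicate 1 came within 3 normalized CPM of the lowest of them. The rise at stage 3 was a log2FC of 0.51 (SE 0.15, adjusted p = 0.0174 by edgeR). Without *sup35-218* replicate 3, the highest culture, it was 0.40 with an adjusted p of 0.0774 by edgeR. The call thus depends on keeping that culture, though the fit without it also has fewer cultures to test. Against stage 1 the log2FC was 0.37 (SE 0.16, adjusted p = 0.0749). A small open reading frame on the other strand, YAR019W-A, overlaps 138 bases of *CDC15* (4.72% of its length) and had 0 to 7 counts per culture.

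*CDC5* (YMR001C, chromosome XIII) acts upstream of the switch and encodes the polo kinase, which phosphorylates Bfa1 and so lifts the brake. It had 88.4, 87.7 and 90.6 normalized CPM in *sup35-218* cultures, against 100.1, 81.9, 96.3 and 114 in *SUP35* stage 3 cultures and 111, 108 and 133 in *SUP35* stage 1 cultures. The *sup35-218* values lie within the *SUP35* stage 3 range and below all of the stage 1 values. *CDC5* fell by 0.40 on the log2 scale (SE 0.13, adjusted p = 0.0190 by edgeR) in *sup35-218* against *SUP35* at stage 1, while at stage 3 the log2FC was -0.14, with an interval of -0.40 to 0.11. The stage 1 call was lost without *SUP35* stage 1 replicate 3 and without each of the *sup35-218* cultures, when the log2FC was -0.37 to -0.30 and adjusted p ran from 0.0643 to 0.0995.

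**Figure D2:**
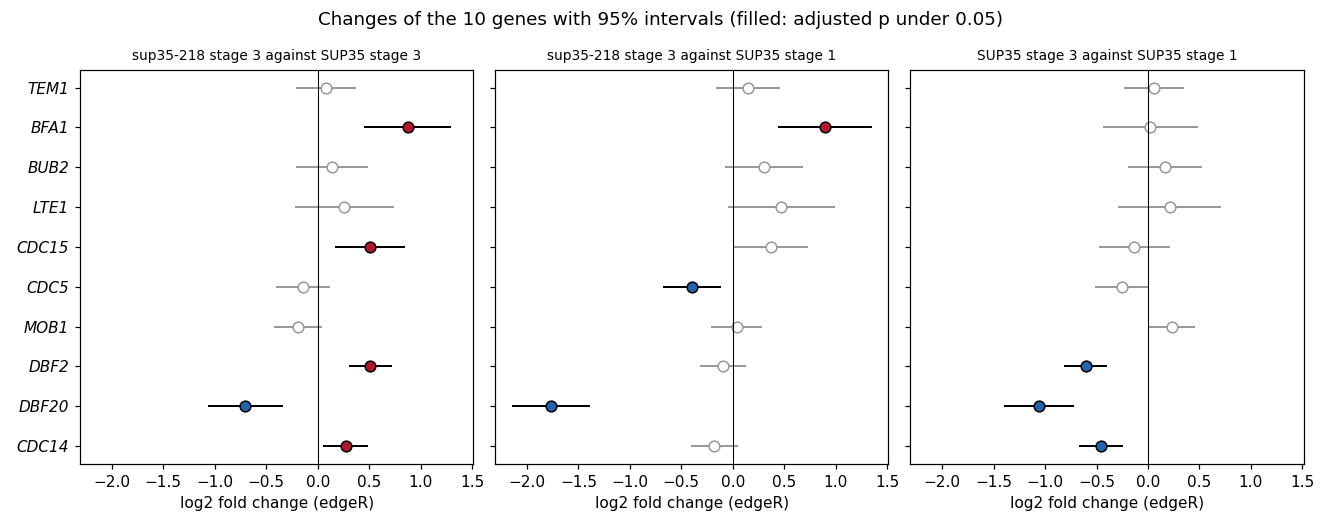
Log2 fold changes of the 10 genes with their 95% intervals (horizontal axis, edgeR) in the 3 comparisons, with genes in pathway order from TEM1 at the top to CDC14 at the bottom; filled points have an adjusted p under 0.05, red for higher and blue for lower. DBF20 is the gene called in all 3 panels, at -0.70, -1.77 and -1.06, and BFA1 is called in both panels that contain sup35-218, at 0.87 and 0.89.

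The paralogous kinases *DBF2* and *DBF20*, which share the subunit Mob1 and at least 1 of which the cell needs, went in opposite directions at stage 3. *DBF2* (YGR092W, chromosome VII) had 234, 222 and 234 normalized CPM in *sup35-218* cultures, against 176, 149, 167 and 153 in *SUP35* stage 3 cultures and 267, 241 and 229 in *SUP35* stage 1 cultures. *SUP35* stage 3 was the low group and overlapped neither of the others, while *sup35-218* and stage 1 overlapped. *DBF2* rose by a log2FC of 0.51 (SE 0.09, adjusted p = 0.000895 by edgeR) in *sup35-218* against *SUP35* at stage 3, and it fell by 0.61 (SE 0.09, adjusted p = 0.000567) in *SUP35* at stage 3 against stage 1. Between *sup35-218* and stage 1 the log2FC was -0.10, with an interval of -0.31 to 0.12.

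*DBF20* (YPR111W, chromosome XVI) had 82.0, 74.7 and 74.0 normalized CPM in *sup35-218* cultures, against 162, 119, 128 and 91.0 in *SUP35* stage 3 cultures and 303, 251 and 230 in *SUP35* stage 1 cultures. No group overlapped another, and the stage 3 wild-type cultures were the most spread. *DBF20* fell by 0.70 on the log2 scale (SE 0.16, adjusted p = 0.00411 by edgeR) in *sup35-218* against *SUP35* at stage 3, and it had log2FC values of -1.77 (SE 0.17, adjusted p = 3.57e-06) against stage 1 and of -1.06 (SE 0.15, adjusted p = 0.000381) in *SUP35* at stage 3 against stage 1. These calls held under each alternative tried. By size of change it ranked 103 of 5856 genes in the comparison of the wild-type stages and 146 in that of *sup35-218* with stage 1, which shares the stage 1 cultures.

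The reads of the pair can be told apart over the aligned coding sequence. The genes are 73.3% identical over 1669 aligned coding positions, the longest run of identical bases is 21, and any aligned window of 150 bases, the length of 1 read, holds at least 28 differences. The stretch around that longest run is shown because it is where the coding sequences are alike for the most bases in a row, with the bases that differ in capitals (RefSeq sequence of the R64 build, plus strand, chrVII:668724-668784 for *DBF2* and chrXVI:747817-747877 for *DBF20*).
DBF2: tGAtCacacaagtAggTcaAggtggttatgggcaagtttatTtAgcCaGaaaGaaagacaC
DBF20: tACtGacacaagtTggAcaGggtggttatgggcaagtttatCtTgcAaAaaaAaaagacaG

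Per kilobase, the balance of the pair was near even at stage 1 and lay toward *DBF2* at stage 3, most in *sup35-218*. *DBF2* RNA was 2.95 ± 0.15 times *DBF20* RNA in *sup35-218* cultures (SD, n = 3), 1.31 ± 0.25 times in *SUP35* stage 3 (n = 4) and 0.933 ± 0.0588 times in *SUP35* stage 1 (n = 3). *DBF20* made up 26.2%, 25.5% and 24.3% of the summed RPKM of the pair in *sup35-218* cultures, against 48.2%, 44.8%, 43.7% and 37.6% in *SUP35* stage 3 and 53.5%, 51.4% and 50.4% in *SUP35* stage 1. The 3 groups do not overlap in this share, which is given as a description with no test of its own. The summed level of the pair was 179 ± 5.89 RPKM in *sup35-218*, 168 ± 23.7 in *SUP35* stage 3 and 297 ± 33.5 in *SUP35* stage 1, so the sums of the stage 3 strains overlap while the shares do not.

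**Figure D3:**
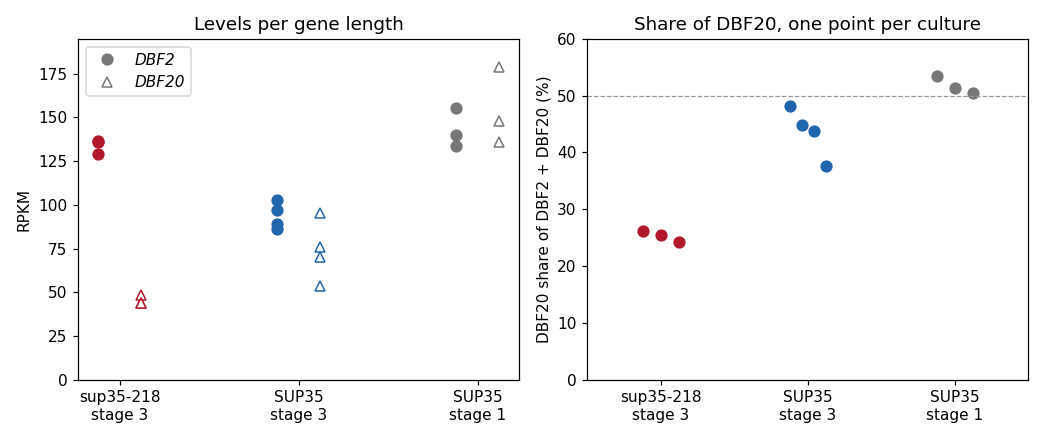
Left, RPKM of DBF2 (filled circles) and DBF20 (open triangles) in each culture of sup35-218 stage 3, SUP35 stage 3 and SUP35 stage 1. Right, the share of DBF20 in the summed RPKM of the pair, 1 point per culture, with a dashed line at 50%: it lies at 24.3% to 26.2%, 37.6% to 48.2% and 50.4% to 53.5% in the same order of groups.

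Markers of mating type also differed between the groups in which *DBF20* differed. The summed level of the MATa markers was 98.5, 114 and 84.97 RPKM in *sup35-218* cultures 1 to 3, which is not the order of *DBF20*. It was 450, 148, 208 and 115 RPKM in *SUP35* stage 3 cultures 1 to 4 and 1354, 1108 and 560 RPKM in *SUP35* stage 1 cultures 1 to 3, which is the order of *DBF20* within each of these groups. As normalized CPM, without division by gene length, the MATa sums of the stage 3 strains overlapped. They were 93.5 to 111 in *sup35-218* and 85.2 to 184 in *SUP35* stage 3, against 214 to 514 in *SUP35* stage 1. Of the 5 markers, 5 were lower in *sup35-218* and 5 in *SUP35* stage 3 against stage 1, and 1 was lower and 1 higher in *sup35-218* against *SUP35* at stage 3. Of the 4 MATalpha markers, 4 were lower in *sup35-218* against *SUP35* at stage 3 (median log2FC -0.64), 2 were lower in *sup35-218* against stage 1 and 1 was higher in *SUP35* at stage 3 against stage 1. Over all genes, 18.5% were higher and 20.7% lower at stage 3, and 22.9% and 23.3% in *sup35-218* against stage 1. Between the wild-type stages these shares were 12.7% and 12.8%. The part of either list in the result was not tested. The 3 genes on each side of *DBF20* had log2FC values of -0.25 to 0.38 between the wild-type stages and -0.50 to 0.21 between the stage 3 strains, and of these 6 neighbours *ALE2* and *PIS1* reached -0.50 and 0.38. Medians of the 16 chromosomes lay between -0.07 and 0.05 at stage 3.

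*MOB1* (YIL106W, chromosome IX), which activates both kinases and holds the only intron among the 10 genes (85 bases, counted within its length of 1030 bases in the table), had 125, 154 and 130 normalized CPM in *sup35-218* cultures, against 167, 157, 161 and 137 in *SUP35* stage 3 cultures and 129, 130 and 139 in *SUP35* stage 1 cultures. The 3 groups overlap and no call was made; the log2FC was -0.19 (interval -0.41 to 0.03) in *sup35-218* against *SUP35* at stage 3 and 0.23 (interval 0.01 to 0.45, adjusted p = 0.118 by edgeR) in *SUP35* at stage 3 against stage 1. The summed RPKM of the kinase pair was 1.37 ± 0.186 times that of *MOB1* in *sup35-218*, 1.11 ± 0.084 times in *SUP35* stage 3 and 2.31 ± 0.336 times in *SUP35* stage 1.

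*CDC14* (YFR028C, chromosome VI), the phosphatase at the end of the cascade, had 101, 95.1 and 96.3 normalized CPM in *sup35-218* cultures, against 82.2, 89.4, 73.1 and 78.5 in *SUP35* stage 3 cultures and 113, 105 and 114 in *SUP35* stage 1 cultures. The order was stage 1, then *sup35-218*, then *SUP35* stage 3, with no overlap between any pair of groups. *CDC14* fell by 0.45 on the log2 scale (SE 0.10, adjusted p = 0.00419 by edgeR) in *SUP35* at stage 3 against stage 1, a call that held without each culture and in each other fit, and whose size is under the cut of 0.5 tried as an alternative. It was higher by a log2FC of 0.27 (SE 0.10, adjusted p = 0.0375) in *sup35-218* against *SUP35* at stage 3. That call was lost without any of *SUP35* stage 3 replicates 3 and 4, *sup35-218* replicates 1 and 3 or *SUP35* stage 1 replicate 2, when the log2FC was 0.22 to 0.31 and the adjusted p 0.0508 to 0.106. Its spread among replicates was the smallest of the 10 genes, a within-group SD of 0.09 on the log2 scale.

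In *sup35-218* against *SUP35* at stage 1, 1 of the 10 genes was higher (*BFA1*) and 2 were lower (*DBF20* and *CDC5*), beside the 22.9% and 23.3% of all genes given above. The count higher was 2 without *SUP35* stage 1 replicate 1 or 3 or *SUP35* stage 3 replicate 1 or 2, and 3 without *sup35-218* replicate 2, and the count lower was 1 without *SUP35* stage 1 replicate 3 or any *sup35-218* culture. In *SUP35* at stage 3 against stage 1 no gene of the 10 was higher and 3 were lower (*DBF20*, *DBF2* and *CDC14*), beside 12.7% and 12.8% of all genes. Without adjustment for multiple tests edgeR would put 1 gene higher (*MOB1*) and 4 lower (with *CDC5*) at the same threshold, and DESeq2 called 0 of the 10 genes higher as well. The groups did not overlap for 5 of the 10 genes (with *CDC14* and *CDC15*) in *sup35-218* against stage 1, where 56.5% of all genes did not, and for 3 of 10 between the wild-type stages, where 33.0% did not. The comparisons share cultures, so their counts are not independent of each other.

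Letters of a forkhead site were sought before the start codons, because forkhead factors drive genes of the G2 and M phases. The letters GTAAACA, on either strand of a window from 250 bases before to 50 bases after the start of the coding sequence, occur in 6.55% of 6001 promoters and in 5 of the 10 members, each time on the strand of the gene. The 5 are given with 11 bases on each side and the letters in capitals (RefSeq, R64 build, 5′ to 3′ on the strand of the gene), at chrVI:210171-210199 minus strand for *CDC14*, chrXIII:146012-146040 minus for *TEM1*, chrVII:667961-667989 plus for *DBF2*, chrXVI:747164-747192 plus for *DBF20* and chrI:105992-106020 minus for *LTE1*.
CDC14: ttggttcaaagGTAAACAaattgaaattg
TEM1: aagcaaaaaagGTAAACAagaaaaggaag
DBF2: ttattcaaaaaGTAAACAatgacatgttt
DBF20: agattttgagaGTAAACAcaaatcaatgg
LTE1: aaaaaaaaactGTAAACAgaaactgataa

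The letters begin 120, 153, 217, 131 and 137 bases before the start codon of *CDC14*, *TEM1*, *DBF2*, *DBF20* and *LTE1*. Genes with them include 1 lower (*DBF20*), 2 higher (*DBF2* and *CDC14*) and 2 not called (*TEM1* and *LTE1*) in *sup35-218* against *SUP35* at stage 3. In *SUP35* at stage 3 against stage 1, *DBF20*, *DBF2* and *CDC14* were all lower, and *TEM1* and *LTE1* were not called. A link between the letters and the direction of change was not tested. *CDC14* and *DBF2*, the 2 members called lower in *SUP35* stage 3 than in both other groups, are also the 2 that hold the pheromone response letters TGAAACA (7.50% of promoters) and the Tec1 letters CATTCC (10.9% of promoters), each on either strand. In *DBF2* the 3 sets of letters lie within 30 bases (chrVII:667969-667998, plus strand), where TGAAACA reads as its reverse complement and overlaps CATTCC by 2 bases.
DBF2: aaaGTAAACAatgacaTGTTTCATTCCtca

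A match is a description of letters and no evidence of binding. The letters sought were chosen with the results known. The core of an Mcm1 site is in 3 of the 10 members and 29.2% of promoters, the forkhead variant ATAAACA in 2 and 12.6%, and the MCB letters ACGCGT in 0 and 3.07%. *CDC5* and *MOB1*, the members counted below among genes transcribed together in G2 and M, hold neither GTAAACA nor ATAAACA in this window. The Tec1 variant CATTCT is in 1 member and 19.2% of promoters, the SCB letters CGCGAAA in 1 and 3.60%, and the Gcn4 letters TGACTC in 1 and 7.98%.

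Compared per kilobase, the order of the 10 genes was nearly the same in the 3 groups apart from the kinase pair. *DBF2* (134 RPKM) and *MOB1* (132) led in *sup35-218* with overlapping ranges, *MOB1* (151) led alone in *SUP35* stage 3, and *DBF20* (154), *DBF2* (143) and *MOB1* (129) led in stage 1, where each overlapped the next. The length used for *MOB1* includes its intron (85 of 1030 bases), so the order of its mean beside *DBF2* in *sup35-218* depends on the length chosen. *DBF20* came after *CDC14* (58.8 RPKM) in *sup35-218*, at 45.4 RPKM, and before it in *SUP35* stage 3, at 73.7 RPKM, where its range overlapped those of both *TEM1* (75.9) and *CDC14* (48.8). *TEM1*, *CDC14*, *CDC5*, *BUB2*, *CDC15*, *BFA1* and *LTE1* followed in that order in every group, although the ranges of *BUB2* and *CDC15* overlapped in *sup35-218* and in stage 1, those of *CDC14* and *CDC5* and of *BFA1* and *LTE1* in *SUP35* stage 3, and those of *TEM1* and *CDC14* in stage 1. *BFA1* and *LTE1* were lowest in all groups, at 11.02 and 5.35 RPKM in *sup35-218*, 6.04 and 4.51 in *SUP35* stage 3 and 5.89 and 3.92 in stage 1.

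Genes whose log2 normalized CPM most resembled each called member over the 10 cultures are given by Pearson's r, as a description: the cultures fall into 3 groups, so r mostly follows group means. For *DBF20* they were *TEC1*, a transcription factor of filamentous growth (r = 0.995), *RNH201*, the catalytic subunit of RNase H2 (r = 0.993), and YHR180W (r = 0.987). For *DBF2* they were *FRE6*, a ferric reductase (r = 0.983), *AFT1*, the iron-responsive activator (r = 0.979), and *CPT1*, a cholinephosphotransferase (r = 0.978). *CDC14* also came beside an iron gene, with *MRX6* (r = 0.936), *FET3*, the multicopper oxidase of iron uptake (r = 0.933), and *ARO10* (r = 0.910). *BFA1* came with *MCM2*, a subunit of the replicative helicase (r = 0.970), *AIM32* (r = 0.945) and *REG2* (r = 0.940).

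The changes of some of these genes are set beside those of the members. *TEC1* had log2FC values of -0.58, -1.52 and -0.95 in *sup35-218* against *SUP35* stage 3, *sup35-218* against stage 1 and *SUP35* stage 3 against stage 1, and *RNH201* had -0.92, -2.44 and -1.51. *AFT1* had 0.74, -0.07 and -0.81, and *FRE6* had 0.74, -0.16 and -0.91. *MCM2* had 0.56, 0.64 and 0.08, as *BFA1* had 0.87, 0.89 and 0.02. *CDC15* came closest to YBR225W (r = 0.944), *SOK1* (0.943) and *PHO89* (0.941), and *CDC5* to *GCN5* (0.967), *NUP157* (0.916) and *SKG1* (0.901).

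Within groups, after each group's mean was taken out, *CDC15* and *DBF2* deviated together over the 10 cultures (r = 0.86), as did *DBF2* and *DBF20* (r = 0.81), while *MOB1* ran against *BFA1* and against *LTE1* (r = -0.82 for both). These are the most extreme of 45 pairs and carry no test. *DBF2* and *DBF20* varied in one direction among replicates and in opposite directions between the stage 3 strains.

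Genes around the network were counted from lists, in *sup35-218* against *SUP35* at stage 3, beside the 18.5% higher and 20.7% lower of all genes. Of 10 genes of early Cdc14 release and its nucleolar anchor, 4 were higher and 2 lower, with a median log2FC of 0.25 against -0.01 over all genes. *NET1*, which holds Cdc14 in the nucleolus, averaged 131 ± 11.2 normalized CPM in *sup35-218* and 90.9 ± 10.3 in *SUP35* stage 3 (log2FC 0.53, adjusted p = 0.00175 by edgeR), while *TOF2*, another nucleolar partner of Cdc14, averaged 38.0 ± 4.04 and 57.7 ± 7.80 (log2FC -0.60, adjusted p = 0.00291). *SLK19*, of the early release pathway, rose by a log2FC of 0.79 (adjusted p = 0.00146) and *ZDS2*, which acts with its paralog on the phosphatase PP2A, by 0.54 (adjusted p = 0.00164).

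Of 7 spindle pole and checkpoint regulators, 2 were higher and none was lower, with a median log2FC of 0.11. *AMN1*, a daughter-cell inhibitor of Tem1, averaged 258 ± 23.0 normalized CPM in *sup35-218*, 173 ± 21.8 in *SUP35* stage 3 and 277 ± 57.3 in *SUP35* stage 1, the order of means seen for *DBF2* and *CDC14*. *ELM1*, the kinase that activates the position checkpoint kinase Kin4, rose by a log2FC of 0.54 (adjusted p = 0.00385 by edgeR). The scaffold *NUD1*, on which the network assembles, had a log2FC of -0.17 and was not called.

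Downstream, 1 of 5 genes of Cdc14 substrates was higher and none lower: *SIC1*, the Cdk inhibitor that accumulates at exit, had a log2FC of 0.23 (adjusted p = 0.0432 by edgeR). Of 7 cytokinesis genes, 2 were higher and none lower, *CHS2*, the chitin synthase of the primary septum (0.57, adjusted p = 0.00592), and *CYK3* (0.54, adjusted p = 0.00338). Of 6 genes of the RAM network, which holds the Dbf2-related kinase Cbk1, 3 were higher and none lower, led by *KIC1* (0.56, adjusted p = 0.00108). The median log2FC of these lists was 0.06, 0.08 and 0.25.

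The 15 genes of the CLB2 cluster, which are transcribed together in G2 and M and include *CDC5* and *MOB1*, did not move as a block: 3 were higher and 2 lower, with a median log2FC of 0.06. *CDC20*, the activator of the anaphase-promoting complex in mitosis, averaged 139 ± 10.01 normalized CPM in *sup35-218* and 337 ± 71.0 in *SUP35* stage 3 (log2FC -1.28, adjusted p = 3.28e-05 by edgeR). Of its mitotic cyclins, *CLB2* averaged 27.8 ± 2.40 and 13.9 ± 3.50 (log2FC 0.98, adjusted p = 0.00088) and *CLB1* 71.6 ± 13.3 and 106 ± 17.2 (log2FC -0.57, adjusted p = 0.00771). The plot of the lists shows each of these genes beside the 10 members.

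**Figure D4:**
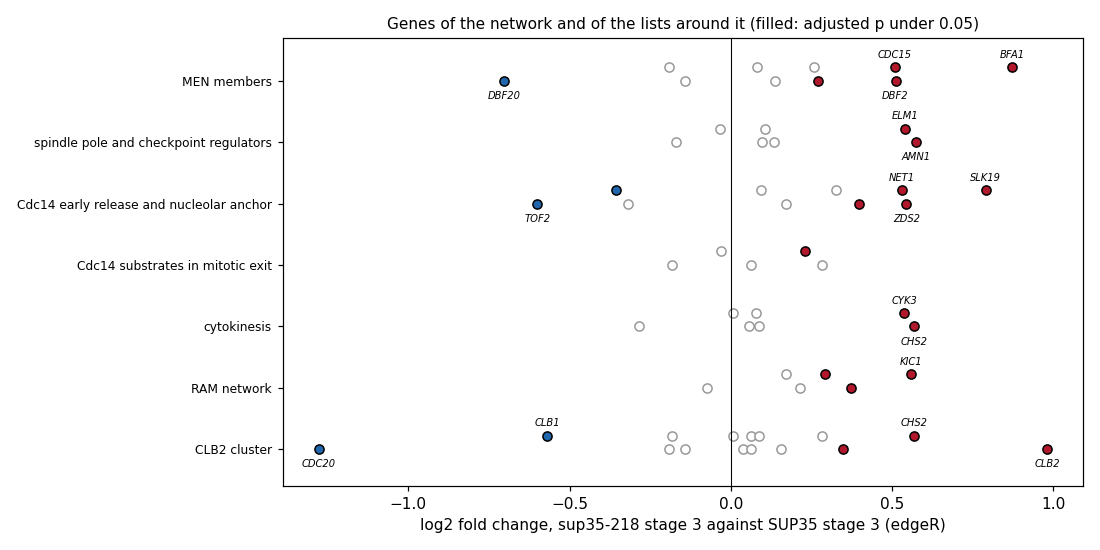
Log2 fold change of each gene in sup35-218 against SUP35 at stage 3 (horizontal axis, edgeR), with 1 row per list; filled points have an adjusted p under 0.05, red for higher and blue for lower, and genes past 0.5 in size are named. Calls to the right outnumber those to the left in the rows shown, CDC20 (-1.28) lies farthest left and CLB2 (0.98) farthest right.

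The same lists were counted against stage 1. In *sup35-218* against *SUP35* at stage 1, beside the 22.9% higher and 23.3% lower of all genes, 3 genes of Cdc14 release were higher and 2 lower, 3 of the 5 substrate genes were higher and none lower, and 1 spindle pole regulator was higher and 2 lower. Cytokinesis genes were split at 2 higher and 2 lower, RAM genes at 2 higher and 1 lower, and CLB2 cluster genes at 3 higher and 5 lower. In *SUP35* at stage 3 against stage 1, beside the 12.7% higher and 12.8% lower of all genes, the counts higher and lower were 1 and 1 for Cdc14 release, 0 and 3 for spindle pole regulators, 1 and 0 for substrates, 1 and 2 for cytokinesis, 0 and 1 for RAM, and 0 and 2 for the CLB2 cluster.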

How the data were processed

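The authors trimmed reads with Trimmomatic, aligned them with HISAT2 to the S288C genome (R64 build) and counted them per gene with featureCounts; the strand setting is not given in the sources used here. They deposited 1 table of raw counts, whole numbers without normalization, for 6607 genes in 10 cultures, all columns of which were used. Samples were grouped by strain name and stage in the labels, and each culture is a biological replicate in the study's methods, though the labels do not say whether cultures came from separate clones. The labels name no batch, and no culture repeats another within sampling noise.

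From the counts, edgeR 4.0.16 (R 4.3.3, limma 3.58.1) was run on all 10 cultures with TMM scaling, filterByExpr (minimum count 10) and a quasi-likelihood fit with 3 groups, and p-values were adjusted over 5856 genes by Benjamini-Hochberg. SE is the log2FC divided by the square root of F. RPKM uses the gene lengths in the table. The 10 genes and all lists were chosen with earlier results of these data known. From each list the text names at most 5 genes with an adjusted p under 0.05 and a log2FC above 0.5 in size in *sup35-218* against *SUP35* at stage 3, plus *SIC1* and *NUD1*, chosen after their values were seen, and the 3 genes most like each called member. Of 6607 IDs, 5924 matched RefSeq (R64), 5899 with the same start and end, including the 10 members. The fit was also run on simulated counts, with the same relative spread beyond counting error set for every gene, which need not hold in these data. No result given here rests on that run. Alternatives were DESeq2 1.42.0, its size factors, upper-quartile scaling, other filters, only the groups compared, a replicate block, a fold cut and leaving out each culture.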

Additional observations from a re-analysis of the deposited data

How the results depend on the processing

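All calls of *DBF2*, *DBF20* and *BFA1*, and that of *CDC14* between the wild-type stages, kept their side of the threshold under each alternative run, except that the fold cut of 0.5 in size leaves out *CDC14* by construction. Leaving out 1 culture gave 2 to 4 members higher and 1 lower in *sup35-218* against *SUP35* at stage 3 (2 without *sup35-218* replicate 3, which loses *CDC14* and *CDC15*), 1 to 3 higher and 1 to 2 lower against stage 1, and 0 higher and 3 to 4 lower in *SUP35* at stage 3 against stage 1. Against stage 1, upper-quartile scaling gave 2 higher (*CDC15* joins) and the fold cut gave 1 lower. The signs of changes near 0 turned without a call: without 1 culture the log2FC of *MOB1* in *sup35-218* against stage 1 ran from -0.0063 to 0.14, that of *TEM1* between the wild-type stages from -0.041 to 0.21, and that of *BFA1* there from -0.077 to 0.12. The causes were not tested.

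Whether same-numbered cultures belong together is not settled by these data, because each comparison holds only 3 same-numbered pairs. Residuals of these pairs correlated at 0.03 to 0.18 (all positive) between the stage 3 strains and at -0.24 to -0.00063 between *sup35-218* and stage 1. Between the wild-type stages they correlated at -0.18 to 0.41. In no comparison was every pair over 0.1. In the same order, 2 of 3, 0 of 3 and 1 of 4 cultures were most like their own number. The 4 include *SUP35* stage 3 replicate 4, which has no same-numbered stage 1 culture and could not match. With a replicate block, 2336, 2826 and 1350 genes were called, against 2297, 2709 and 1489 without it. The block ended the call of *CDC14* at stage 3 (0.26, adjusted p = 0.072 by edgeR), gave one for *CDC5* between the wild-type stages (-0.34, adjusted p = 0.0402) and turned the log2FC of *BFA1* there to -0.089. At 30 to 90 counts per culture, *BFA1* is the member whose levels the depth limits most.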
